A study of Canis lupus familiaris with 22 samples.

Results

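The genes described here are those of 3 milk proteins, chosen by name and kept where the array carried a probe for a canine RefSeq transcript of the gene: LALBA, which encodes alpha-lactalbumin, CSN2, which encodes beta-casein, and CSN3, which encodes kappa-casein. The array paired 2 of the 3 genes with a probe, LALBA with 2 probes and CSN2 with 1, and no probe was paired with CSN3, which was not analysed here. These made up 2 of the 1458 genes paired with a probe by symbol and 3 of the 43603 probes on the array, controls left out. All probes together carried 36619 names, which were gene symbols or, where none was found, target identifiers. All 3 probes were among the 35314 that were well above the local background on at least 4 arrays and were tested. The pair of LALBA probes is called the brighter and the dimmer probe below, and since they target transcripts of a single gene they are not separate evidence about it.

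Total RNA of canine mammary tissue was labelled with Cy3 and hybridised to 1-colour canine arrays, as a rule on 2 arrays (a and b) under each dog number, which the labels call biological duplicates and which were treated here as arrays of 1 dog. The labels list 22 arrays of 11 dogs, and scanner files were deposited for 19 arrays of 10 dogs on 6 slides read by 2 scanners. The malignant group comprised malignant mammary gland tumours of 5 dogs on 9 arrays, the benign group benign mammary gland tumours of 3 dogs on 6 arrays, and the healthy group healthy mammary tissue of 2 dogs on 4 arrays. Malignant dog 5 had 1 array with a scanner file, alone on its slide and scanner, and for malignant dog 6 none was among the files used, so that its values came only from the deposited table of signals. Statements below are about the 10 dogs with scanner files unless that table is named. The paper lists its malignant tumours under different histological types: carcinomas of several kinds, a myoepithelioma and a fibrosarcoma. Whether its numbering is that of the labels is not known, so no type is given by dog here. Age, breed and reproductive stage of the dogs were not given in the sources used here. The share of probes that stood well above background ran from 63.7% to 76.4% over the malignant arrays, from 71.5% to 83.2% over the benign and from 62.2% to 71.4% over the healthy arrays, and the number of arrays and dogs limited the precision of every value.

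Alpha-lactalbumin is the regulatory subunit of lactose synthase, which makes milk sugar in the Golgi, and beta-casein and kappa-casein are proteins of the casein micelle, which carries calcium and phosphate in milk. The genes are switched on in luminal alveolar cells of the mammary gland by prolactin, acting through STAT5, together with glucocorticoids, and in the bitch this belongs to late pregnancy, lactation and pseudopregnancy. Their RNA is therefore commonly used as a mark of secretory differentiation of the mammary epithelium.

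The labelled tissue was first set against marker genes of the cell types it could hold, in log2 units relative to the 75th percentile of the same array, the scale used for every level below. The epithelial keratin KRT19 lay at 5.17, 6.07, 1.20, 6.31 and -3.56 in malignant dogs 1 to 5, at 6.67, 3.95 and 2.21 in benign dogs 1 to 3, and at 3.34 and 5.19 in healthy dogs 1 and 2. RNA of this keratin was thus measured in every dog, with malignant dog 5 far below the others and malignant dog 3 next. Of the other luminal markers CDH1, CLDN3, PGR and ERBB2 were well above background on 19 of 19 arrays. MUC1, at -7.28 in malignant dog 5, was so on 18 and ESR1 on 11. The summed linear signal of the 7 luminal markers, in multiples of the 75th percentile, was 54.8, 92.0, 6.61, 103 and 1.96 in malignant dogs 1 to 5, 131, 24.0 and 19.2 in the benign dogs, and 32.9 and 50.7 in the healthy dogs. In malignant dog 5 the 3 adipose markers summed to 52.2 where the other dogs lay between 0.861 and 3.44. Both healthy samples carried RNA of the exocrine pancreas, with CPB1, which encodes a pancreatic carboxypeptidase, at 10.11 and 7.18 in healthy dogs 1 and 2, and the 7 pancreatic markers summing to 4638 and 1067 there, against 1.63 to 3.57 in the tumours. The brightest signal of the pancreatic markers over the dogs was that of PLA2G1B, and REG3A was well above background on 0 malignant and 0 benign arrays. The part of these differences in tissue make-up in the milk protein values was not tested.

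LALBA varied from dog to dog far more than from group to group. With the brighter probe the level was -1.48, 8.04, -3.89, -1.21 and -4.41 in malignant dogs 1 to 5. It was 1.81, -2.99 and -6.15 in benign dogs 1 to 3 and -4.41 and 1.51 in healthy dogs 1 and 2. Malignant dog 2 stood alone at the top, a benign and a healthy dog shared second place, and the lowest dogs came from all 3 groups, so that the groups overlapped throughout. The level in malignant dog 2 was 264 times the 75th percentile of its arrays. In bulk tissue of this kind fewer cells of a type and less RNA per cell cannot be told apart.

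The dimmer LALBA probe gave much the same picture. It read -2.69, 7.35, -4.53, -2.10 and -7.43 in malignant dogs 1 to 5, 0.62, -4.13 and -6.46 in the benign dogs, and -6.49 and 0.32 in the healthy dogs. Malignant dog 2 was again far above every other dog, benign dog 1 and healthy dog 2 followed, and the lowest levels were in malignant dog 5, healthy dog 1 and benign dog 3. The brighter probe was well above background on 9 of 9 malignant, 5 of 6 benign and 3 of 4 healthy arrays, and the dimmer probe on 7 of 9, 5 of 6 and 2 of 4. LALBA RNA was therefore above background on at least 1 array of every dog with the brighter probe, while with the dimmer probe malignant dog 5 and healthy dog 1 were not above background on any array.

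CSN2, the beta-casein gene, also varied widely from dog to dog. Its level was 0.10, 8.48, -4.75, -7.22 and -2.06 in malignant dogs 1 to 5. It was -0.63, -1.86 and -7.64 in benign dogs 1 to 3 and -5.90 and -0.46 in healthy dogs 1 and 2. Malignant dog 2 was once more the highest by a wide margin, malignant dog 1, healthy dog 2 and benign dog 1 came next and close to each other, and each group held at least 1 dog with a low level. CSN2 was not above background on any array of malignant dogs 3 and 4, benign dog 3 and healthy dog 1, and was well above it on all arrays of the other 6 of 10 dogs. By arrays these were 5 of 9 malignant, 4 of 6 benign and 2 of 4 healthy, so that samples with and without measurable beta-casein RNA occurred under each label.

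**Figure D1:**
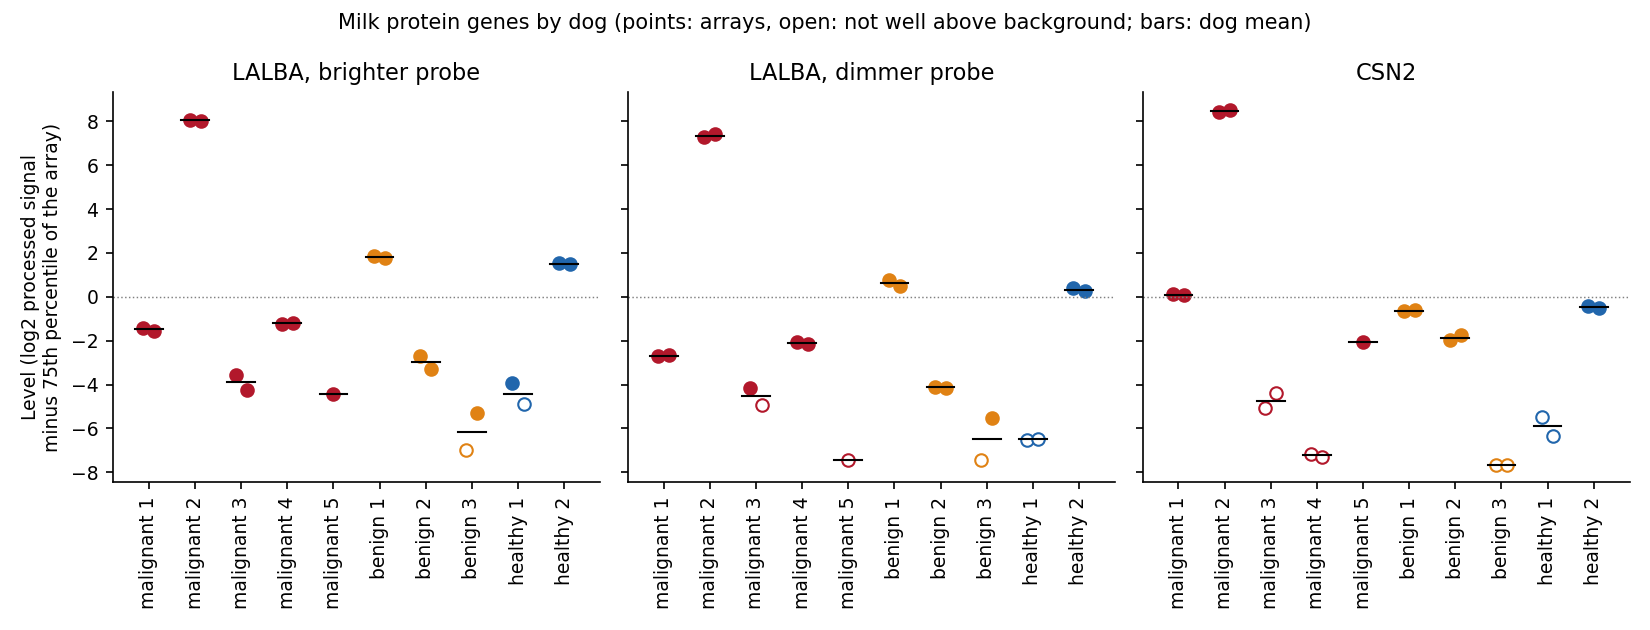
Level of LALBA (brighter and dimmer probe) and CSN2 in each dog, as log2 signal relative to the 75th percentile of the array on the vertical axis, with dogs by group on the horizontal axis, points for arrays (open where not well above background) and bars for the mean of a dog. Malignant dog 2 lies at 8.04, 7.35 and 8.48 in the 3 panels, while the other 9 dogs of the 3 groups overlap.

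The order of the dogs was read against the largest difference between the a and b arrays of a dog, which was 1.70 for the brighter LALBA probe over all pairs and, for CSN2, 0.19 over the dogs whose arrays were all well above background. For LALBA the order ran from malignant dog 2 to benign dog 1 and healthy dog 2, which did not differ beyond that difference, then malignant dogs 4 and 1, benign dog 2, malignant dogs 3 and 5 and healthy dog 1, in which no neighbours differed beyond it, and last benign dog 3, whose gap of 1.74 to the next dog barely passed it and which was well above background on 1 of 2 arrays. For CSN2 it ran from malignant dog 2 to malignant dog 1, then healthy dog 2 and benign dog 1, which did not differ beyond the array difference, benign dog 2 and malignant dog 5, with the 4 dogs not above background at the end and in no order among themselves. Over all pairs the largest array difference of CSN2 was 0.89. Against it malignant dog 1, healthy dog 2 and benign dog 1 have no order, and neither have benign dog 2 and malignant dog 5. The top place of malignant dog 2 was the same for both genes.

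Malignant dog 2 was set apart by folds that no other pair of neighbouring dogs approached. Its LALBA signal with the brighter probe was 75.4-fold that of benign dog 1, 92.4-fold that of healthy dog 2 and 611-fold that of malignant dog 4, the next malignant dog. Its CSN2 signal was 334-fold that of malignant dog 1, 491-fold that of healthy dog 2 and 552-fold that of benign dog 1. For a dog in which the probe was not above background on any array the fold is a lower bound, computed on each of its arrays against the lowest level of any probe well above background there, or its own level where that was higher, and for CSN2 it was at least 9568-fold for malignant dog 3 and at least 11510-fold for healthy dog 1. Both copies of the array gave these levels in malignant dog 2, since its a and b arrays differed by no more than the array differences above.

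Malignant and healthy mammary tissue were compared to ask whether tumours called malignant had lost or kept the milk protein RNA of the gland. In the dogs with scanner files LALBA (brighter probe) and CSN2 were on average higher in the malignant dogs, by 0.86 and 2.09 log2 units. That difference rested on single dogs, malignant dog 2 among them. Malignant dog 6 was as high in the deposited table, whose differences were not fitted without malignant dog 2. Of the other malignant dogs with scanner files, malignant dog 1 was above both healthy dogs in CSN2, and none was above the higher healthy dog in LALBA. With the brighter LALBA probe 1 of 5 malignant dogs was above both healthy dogs and 4 of 5 were between them or level with the lower. With CSN2 2 of 5 were above both, malignant dog 5 was between them, and malignant dogs 3 and 4, like healthy dog 1, were not above background and have no order. Neither gene therefore separated malignant from healthy tissue.

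The group mean of the brighter LALBA probe was -0.59 ± 5.03 (SD, n = 5) in the malignant dogs and -1.45 ± 4.19 (SD, n = 2) in the healthy dogs, a log2 difference of 0.86 with a standard error of 3.17 and a 95% confidence interval from -6.13 to 7.85 (limma, adjusted p = 0.995). For CSN2 the means were -1.09 ± 6.02 and -3.18 ± 3.85, and the log2 difference was 2.09 with an interval from -5.70 to 9.88 (limma, adjusted p = 0.974). The dimmer LALBA probe gave 1.20 with an interval from -6.27 to 8.68 (limma, adjusted p = 0.989). The intervals are wide enough to hold a large difference in either direction. A difference of many-fold was therefore not detectable for these probes, given their spread between dogs and this number of dogs. Of the 3 milk protein probes 0 were called by limma at an adjusted p of at most 0.05, where 0.416% of the 35314 probes tested were called, and 0 of 3 had groups that did not overlap, where 7.09% of all probes did not. An unpaired, unmoderated test of group means, run on the same levels because the groups are different dogs although the study's methods name a paired one, also called 0 of the 3, and 2053 of all probes passed an unadjusted p of 0.05 with limma and 1417 with that test. Of these 1417 probes 746 were higher and 671 lower in malignant tissue, unlike the split of the called probes given next. The 147 probes called in all, 0 higher and 147 lower in malignant tissue, numbered 72 when healthy dog 1 was left out and 885 when healthy dog 2 was, and the milk protein differences turned to -2.10, -2.20 and -0.63 for the brighter and dimmer LALBA probes and CSN2 without healthy dog 1, and to -1.30, -1.10 and -0.30 without malignant dog 2. With the slide as a term and the arrays of a dog as a block the differences were 2.28, 2.94 and 2.40. Within single slides that held both groups CSN2 differed by 3.06, 10.59 and -6.78 and the brighter LALBA probe by -0.22, 8.13 and -2.67 on slides 2, 4 and 5, so that neither gene had a single direction within slides. Every slide used in this way, here and in the comparisons below, held an array on which CSN2 was not above background. Within-slide values of CSN2 and of both LALBA probes are not exact where they use an array not above background. For the brighter LALBA probe this holds on slide 4, through healthy dog 1, and below on slide 3, through benign dog 3.

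Benign and healthy tissue were compared to ask the same of tumours called benign. Here the 3 benign dogs formed a series rather than a group: benign dog 1 had LALBA and CSN2 RNA at about the level of healthy dog 2, benign dog 2 had less of both, and benign dog 3 had little LALBA and no CSN2 above background. With the brighter LALBA probe benign dog 1 did not differ from the higher healthy dog beyond the array difference, benign dog 2 was between the healthy dogs and benign dog 3 was barely further below the lower healthy dog than arrays can differ. For CSN2 0 were above both healthy dogs, 2 were between them, and benign dog 3 and healthy dog 1 were not above background. The benign tumours thus covered much the same range as the healthy samples.

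The benign group mean was -2.45 ± 4.01 (SD, n = 3) for the brighter LALBA probe and -3.38 ± 3.75 for CSN2. On the log2 scale the differences from healthy tissue were -0.998 with an interval from -8.63 to 6.63 for the brighter LALBA probe (limma, adjusted p = 0.991), -0.24 from -8.39 to 7.92 for the dimmer probe and -0.20 from -8.69 to 8.30 for CSN2. Each was far smaller than the spread between dogs of the same group. Limma called 0 of 3 milk protein probes where 0.379% of all probes were called, and 0 of 3 did not overlap where 23.5% of all probes did not. Of all probes 2396 passed an unadjusted p of 0.05 with limma and 1717 with the unpaired test, and 0 of the 3 did so with either. Of these 1717 probes 956 were higher and 761 lower in benign tissue, unlike the split of the called probes given next. Without benign dog 1 limma called 36 higher and 99 lower. The 134 probes called in all, 1 higher and 133 lower in benign tissue, numbered 65 when healthy dog 1 was left out and 928 when healthy dog 2 was, and in the latter case the milk protein differences turned to 1.96, 3.17 and 2.52, while without benign dog 3 they turned to 0.86, 1.33 and 1.94. With the slide as a term and the arrays of a dog as a block they were -0.74, 0.05 and -0.09, and within slides 2 and 5 the brighter LALBA probe differed by 3.05 and -3.25 and CSN2 by 2.28 and -3.61. This comparison and the one of malignant with healthy tissue shared the 2 healthy dogs, so that a low or high healthy level moves both.

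Malignant and benign tumours were compared to ask whether the milk protein genes follow the diagnosis. In the dogs with scanner files both genes were on average higher in the malignant tumours. That difference reversed or fell close to 0 when either malignant dog 2 or benign dog 3 was left out. Apart from malignant dog 2 these tumours of the 2 kinds covered much the same levels. Malignant dog 6, measured in the deposited table alone, was as high as malignant dog 2, at 8.11 for the brighter LALBA probe and 8.73 for CSN2. The differences of that table were not fitted without malignant dog 2. With the brighter LALBA probe 1 of 5 malignant dogs was above all benign dogs and 4 were between them. With CSN2 2 of 5 were above all benign dogs, malignant dog 5 was below benign dogs 1 and 2, and malignant dogs 3 and 4 and benign dog 3 were not above background. Tumours with and without measurable CSN2 RNA were found under either diagnosis, while the very high levels were those of malignant dog 2 and, in the deposited table, malignant dog 6.

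The differences were 1.86 with an interval from -4.24 to 7.96 for the brighter LALBA probe, 1.44 from -5.09 to 7.97 for the dimmer probe and 2.28 from -4.51 to 9.08 for CSN2 (limma, log2 scale, adjusted p = 0.9998 for each). Without malignant dog 2 they turned to -0.30, -0.87 and -0.11, and without benign dog 3 they were 0.00, -0.13 and 0.15. Limma called 0 of 3 milk protein probes and 0% of all probes, 0 of 3 milk protein probes did not overlap where 1.95% of all probes did not, and 637 of all probes passed an unadjusted p of 0.05 with limma and 803 with the unpaired test. With the slide as a term and the arrays of a dog as a block the differences were 3.02, 2.89 and 2.49. Within slides 2, 3, 5 and 6 the brighter LALBA probe differed by -3.27, 2.45, 0.57 and 5.21 and CSN2 by 0.78, -1.32, -3.16 and 3.82.

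**Figure D2:**
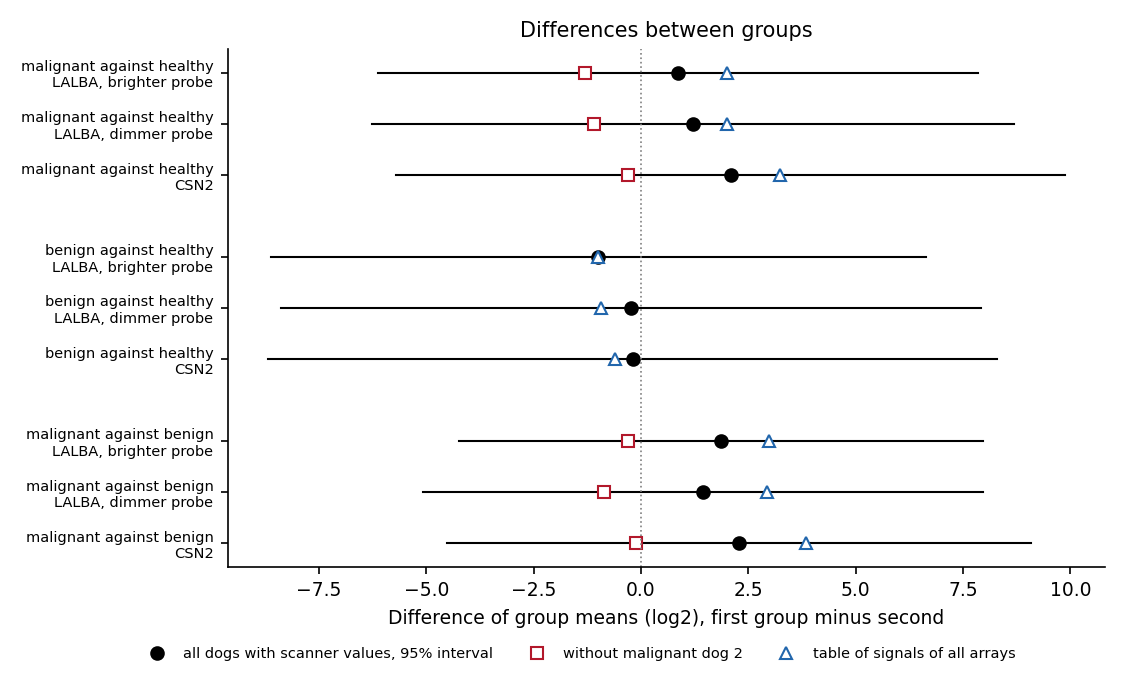
Differences of LALBA (brighter and dimmer probe) and CSN2 between groups with their 95% confidence intervals, on a horizontal log2 axis on which 0 is no difference, with filled circles for all dogs with scanner values, squares for the comparisons of malignant tissue without malignant dog 2 and triangles for the deposited table of all arrays. Every interval crosses 0, the one of CSN2 in benign against healthy running from -8.69 to 8.30, and the squares lie below 0.

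The spread of these genes within groups was large. The SD between dogs of a group was 4.64 for the brighter LALBA probe, 4.97 for the dimmer probe and 5.18 for CSN2, pooled over the 3 groups, where the median over all probes tested was 0.79 and the 99th percentile 2.97. Of the 35313 probes with a pooled SD 17, 10 and 4 had a larger one. These SDs include malignant dog 2 and dogs not above background on any array, 4 for CSN2, 2 for the dimmer LALBA probe and 0 for the brighter probe. The SD between the a and b arrays was 0.51, 0.49 and 0.27.

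On this scale each group showed the spread. In the malignant dogs the SD of CSN2 was 6.02, and 1 of 35313 probes had a larger one, while 12 and 7 had a larger one than the brighter and dimmer LALBA probes, whose SDs were 5.03 and 5.56. These values rested on malignant dog 2: without it, a setting chosen after seeing the data, the SDs of the brighter LALBA probe, the dimmer probe and CSN2 over the other 4 dogs were 1.64, 2.40 and 3.18, with 4042, 1322 and 481 of 35313 probes above them, where all probes tested had a median of 0.82. In the benign dogs the SDs were 4.01, 3.61 and 3.75, with 134, 212 and 171 of 35314 probes above them, and in the healthy dogs they were 4.19, 4.81 and 3.85, with 198, 64 and 314 above them. The range within the malignant group was 12.45 log2 units for the brighter LALBA probe and at least 14.64 for CSN2, against 7.96 and at least 6.48 in the benign and 5.92 and at least 4.55 in the healthy group, with dogs not above background at their bound, though a range grows with the number of dogs and the malignant one was 3.20 for the brighter LALBA probe without malignant dog 2. The SDs of CSN2 and the dimmer LALBA probe in each group, and of the brighter probe in benign and healthy dogs, include arrays not above background. In the deposited table, which keeps the background in the signal, the SD of CSN2 was 4.73 in the same 5 malignant dogs, 1.74 in benign and 1.65 in healthy dogs. That of the brighter LALBA probe was 4.5, 2.98 and 2.89. The size of the spread therefore depended on how low signals were treated, in the malignant group too. In malignant dogs 1, 3, 4 and 5 CSN2 lay between -3.58 and -0.18 in that table. With background subtracted it lay between -7.22 and 0.10.

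LALBA and CSN2 mostly rose and fell together over the 10 dogs, with exceptions in single dogs. Pearson's r between the brighter LALBA probe and CSN2 was 0.858 (permutation p = 0.00742, adjusted p = 0.0111 over the 3 relations) and Spearman's rho was 0.733 (permutation p = 0.0209, adjusted p = 0.0313). Without malignant dog 2 and benign dog 1, the dogs farthest from the median of LALBA, r was 0.552 over 8 dogs, so that the relation rests in part on those dogs. Between the dimmer probe and CSN2 r was 0.811 (permutation p = 0.0174, adjusted p = 0.0174) and rho 0.636 (permutation p = 0.0546, adjusted p = 0.0546), with an r of 0.397 without those dogs. The LALBA probes followed each other with r 0.985 (permutation p = 6e-05, adjusted p = 0.00018) and rho 0.952 (permutation p = 0.00012, adjusted p = 0.00036), and r was 0.945 without those dogs. The CSN2 levels of 4 of the 10 dogs in these correlations, and the dimmer LALBA levels of 2, were not above background on any array. All tests were two-sided, and a slide held too few arrays for a correlation within it.

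In some dogs LALBA was above background and CSN2 was not. Malignant dog 4 had LALBA at -1.21, measured on both arrays, and CSN2 at -7.22, not above background. Malignant dog 3 had LALBA at -3.89 without CSN2 above background. In malignant dogs 1 and 2, benign dogs 1 and 2 and healthy dog 2 both genes were above background on all arrays with every probe, as they were in malignant dog 5 with the brighter but not the dimmer LALBA probe, and benign dog 3 and healthy dog 1 had little LALBA and no CSN2 above background. RNA for the lactose synthase subunit was therefore found in tumours without measurable RNA for the casein.

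**Figure D3:**
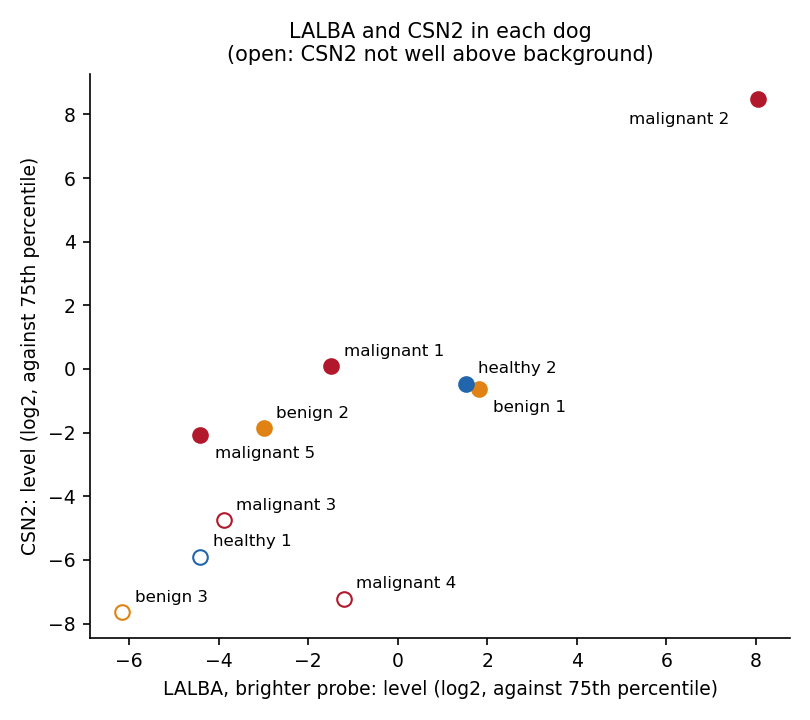
Level of CSN2 on the vertical axis against LALBA (brighter probe) on the horizontal axis, 1 point per dog and coloured by group, both as log2 signal relative to the 75th percentile of the array, open where CSN2 was not well above background. Malignant dog 2 stands at 8.04 and 8.48, far from the rest, and malignant dog 4 has LALBA at -1.21 with CSN2 at -7.22.

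The deposited table of signals, which holds all 22 arrays with no background removed, added malignant dog 6. Put on the same scale of log2 signal relative to the 75th percentile, the brighter LALBA probe read 8.11 in malignant dog 6 and 8.06 in malignant dog 2, the dimmer probe 7.10 and 7.26, and CSN2 8.73 and 8.16. The highest healthy dog had 1.5, 0.38 and -0.63. Malignant dog 6 was thus as high as malignant dog 2 in both genes, above every other dog, and ranked 1, 2 and 1 of 11 for the 3 probes.

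In this table the arrays of malignant dog 6 gave 8.14 and 8.08 for the brighter LALBA probe and 8.71 and 8.75 for CSN2, and its signals were 97.6-fold and 657-fold those of healthy dog 2, folds that background left in the signal makes smaller. The other malignant dogs had CSN2 at -0.18, -2.55, -3.58 and -1.93 for dogs 1, 3, 4 and 5, the benign dogs at -0.87, -2.04 and -4.29, and the healthy dogs at -2.97 and -0.63, so that 2 very high malignant dogs stood over a mixed field. Over the 6 malignant dogs the means were 1.45 ± 5.18, 0.74 ± 5.01 and 1.44 ± 5.54 (SD) for the brighter LALBA probe, the dimmer probe and CSN2. The differences from healthy tissue became 2.0, 2.0 and 3.24 (limma, adjusted p = 0.986 for each) and those from benign tissue 2.98, 2.94 and 3.84 (limma, adjusted p = 0.733 for each), with 0 of 3 probes called, so that a second high dog left the groups overlapping.

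**Figure D4:**
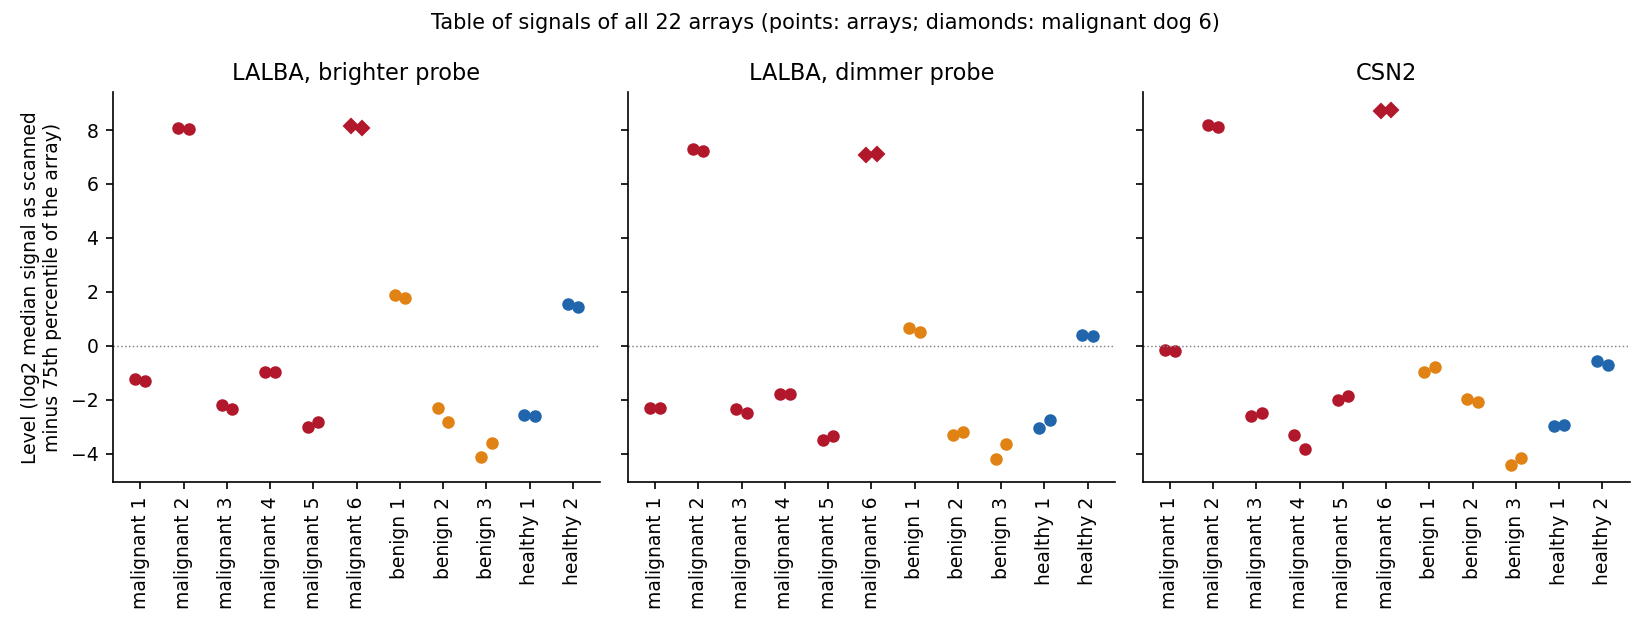
Level of LALBA (brighter and dimmer probe) and CSN2 in all 22 arrays of the deposited table, as log2 signal with no background removed relative to the 75th percentile of the array, with diamonds for malignant dog 6. Malignant dogs 2 and 6 lie at 8.06 and 8.11 for LALBA and 8.16 and 8.73 for CSN2, and no other dog is above 1.83 in LALBA.

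The genes that work with LALBA and CSN2 in a secreting cell were described list by list, over the genes that RefSeq names paired with a probe. Only 2353 of the 43603 probes had a gene symbol, so a listed gene left unpaired may still be on the array. The study reported LCN2, also among the other milk proteins listed, as a top up-regulated gene of malignant tumours. In none of these 5 lists was a paired gene called in any comparison. Of 21 other milk proteins 4 were paired with a probe (CLU, LTF, PIGR and LYZF2). Their median log2 differences were 0.61 for malignant against healthy, -0.31 for benign against healthy and 0.29 for malignant against benign. All probes tested had 0.07, 0.03 and 0.06. LTF, the iron-binding lactoferrin, lay at 3.89, 3.46, 0.60, 3.64 and -5.64 in malignant dogs 1 to 5, at 6.16, 1.76 and -0.80 in the benign dogs and at -2.87 and 3.38 in the healthy dogs. It was highest in benign dog 1 and not in malignant dog 2, and its groups overlapped as those of LALBA did. CLU, which encodes clusterin, and PIGR, the receptor that carries antibodies into milk, lay between 6.25 and 8.62 and between 0.02 and 2.15. LYZF2, a lysozyme gene, reached 4.16 in malignant dog 2 and 0.30 in healthy dog 2 and was lower in all others, and in the deposited table it read 6.61 in malignant dog 6, 3.99 in malignant dog 2 and 0.15 in healthy dog 2.

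For making lactose and milk fat, 6 of 31 listed genes were paired with a probe. Their medians were 0.57, 0.05 and 0.36 in the same order of comparisons. SLC2A1, the glucose transporter that feeds lactose synthesis, lay at 2.54 in malignant dog 2, at 6.58 in benign dog 3 and at 0.27 and 1.71 in the healthy dogs. Its highest level was thus in a dog with little milk protein RNA. CD36, a fatty acid transporter of the milk fat globule membrane, lay at 2.76 in malignant dog 2 and at 3.65 in malignant dog 5, and SREBF1, which controls lipid synthesis, lay between -1.30 and 0.05 in all dogs.

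Of 27 genes of prolactin and hormone signalling 10 were paired with a probe, with medians of -0.12, -0.23 and 0.42. The glucocorticoid receptor NR3C1 lay between 1.72 and 4.32 in all dogs, and the receptor tyrosine kinase ERBB2 between -0.92 and 0.63. The progesterone receptor PGR lay at 2.54 in benign dog 1, 0.78 in healthy dog 2, -0.65 in malignant dog 2 and -4.13 in malignant dog 5. NR3C1 and ERBB2 were therefore measured in dogs with much and with little milk protein RNA. No probe was paired with the prolactin receptor or the STAT5 genes.

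For milk ion and nutrient transport 6 of 17 genes were paired with a probe, with medians of -0.72, -0.74 and 0.01. The amino acid transporter subunit SLC3A2 lay between 4.33 and 6.64, the calcium pump ATP2A2 between -0.69 and 2.35 and the calcium-sensing receptor CASR between -1.93 and 0.06 over the 10 dogs. Of 24 genes of the secretory apparatus 12 were paired with a probe, with medians of -0.33, -0.36 and -0.03. SSR2, of the translocon, lay at 6.79, HSP90B1, a chaperone of the endoplasmic reticulum, at 5.91 and SEC61A1, the channel itself, at 5.58 in malignant dog 2, and all 3 were higher in malignant dog 3, at 9.02, 7.56 and 8.26, which had little LALBA. The general machinery of secretion was thus measured in dogs with much and with little milk protein RNA. All 12 genes had a negative r with the brighter LALBA probe over the 10 dogs, from -0.15 (SPCS2) to -0.69 (SSR1). With CSN2 r ran from 0.04 (SPCS2) to -0.64 (SEC61B). These correlations were not tested.

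The marker lists of cell types were read beside the milk protein genes, and called genes were found in 2 of the 9. Of the 24 exocrine pancreas genes 7 were paired with a probe. Among these, 6 (CLPS, CPB1, GP2, PLA2G1B, PNLIPRP1 and REG3A) were lower in malignant and 6 in benign than in healthy tissue. The medians over the 7 were -11.5 and -11.1. REG3A, well above background on the 4 healthy arrays alone, passed the filter through the group in which it was high, so that its direction was fixed by the filter. Between malignant and benign tumours 0 of the 7 were called, with a median of -0.13. The healthy dogs, high in all of these, included both the healthy dog with little LALBA and the one with more. Of 8 macrophage genes 3 were paired with a probe, with medians of 0.55, 2.03 and -1.48. FCGR1A, an antibody receptor, was higher in benign than in healthy tissue by 4.04 log2 units (limma, adjusted p = 0.0208, above both healthy dogs in 3 of 3 benign dogs). It was the 1 probe called higher in benign tissue, and 0 probes were called higher there with only the 2 groups in the fit, without healthy dog 1 or by the unpaired test after adjustment, so that this call was lost.

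In the other marker lists 0 of the genes paired with a probe were called. The luminal list had 7 of 14 genes with medians of -0.87, 0.01 and -0.02, with KRT19, CDH1 and CLDN3 as its leading genes, and the basal list 2 of 8 (KRT14 and OXTR) with 0.51, 0.19 and 0.33. Malignant dog 5, the lowest in KRT19 and not above background with the dimmer LALBA probe, still had CSN2 above background. Medians were 1.19, -0.78 and 1.70 for 3 of 8 adipose genes (LEP, PPARG and ADIPOQ), 0.41, 0.44 and -0.78 for 3 of 7 B and plasma cell genes (CD38, CD79A and MS4A1), and 0.98, 0.59 and -0.12 for 3 of 5 T cell genes (CD8A, CD4 and CD28). They were -1.12, -0.57 and -0.54 for 2 of 5 endothelial genes (VWF and KDR) and 0.15, -0.82 and 0.96 for 4 of 8 skeletal muscle genes tested (among them CKM, MYH1 and MYH7).

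Malignant dog 2, the dog highest in LALBA and CSN2, was also the highest in CKM and in the sum of the muscle markers. The muscle creatine kinase CKM lay at 1.88 there and between -3.44 and -0.85 in the other dogs, and the summed signal of the 5 muscle markers was 7.83 times the 75th percentile against 0.185 to 1.33 elsewhere. The muscle myosin genes did not all follow: MYH1 was lowest in this dog, at -4.30, MYH7 lay at -0.67 there and at -0.62 in malignant dog 3, and MYH2, named after its values were seen, was highest there at 1.80. Its luminal sum of 92.0 was exceeded in malignant dog 4 and benign dog 1, which had far less milk protein RNA. Malignant dog 6, as high in milk protein RNA, had CKM at -1.79 in the deposited table, where malignant dog 2 had 1.80, MYH2 at -0.72 against 1.89, second of the 11 dogs, and KRT19 at 6.01 against 6.0. The part of muscle tissue in the values of malignant dog 2 was not tested.

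**Figure D5:**
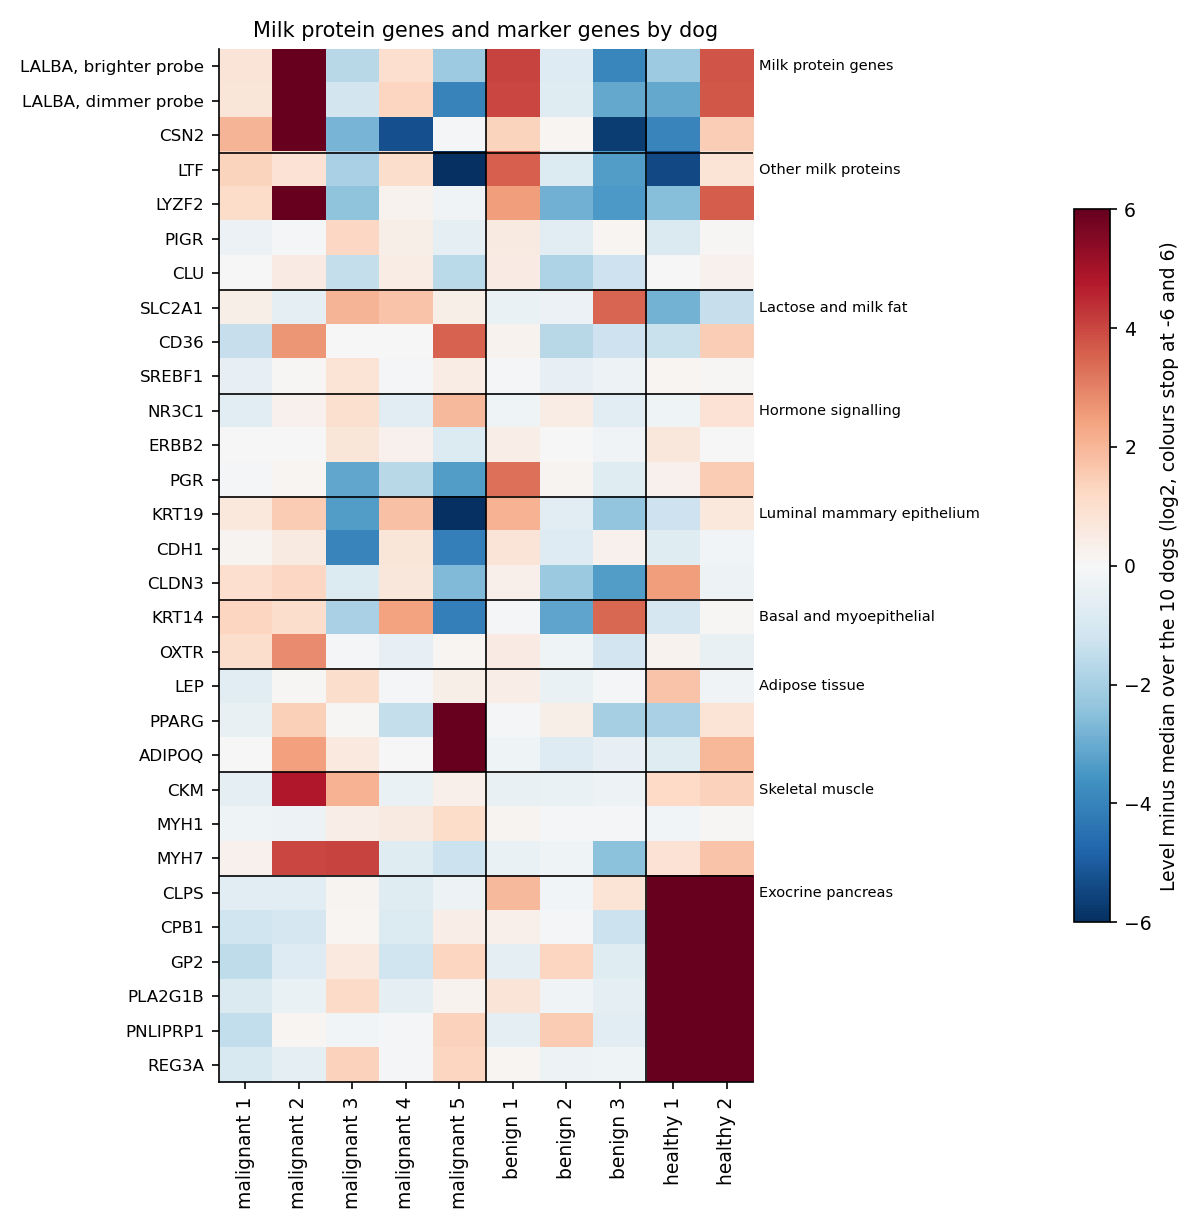
Level of the milk protein genes and of named genes of some of the lists in each of the 10 dogs, as the log2 difference from the median over the dogs (colour scale, with colours that stop at -6 and 6), genes down the side and dogs across. Malignant dog 2 stands out in LALBA, CSN2 and LYZF2, and the healthy dogs in the pancreatic genes such as CPB1, whose levels there were 10.11 and 7.18.

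Among the 1458 genes with a symbol, those whose pattern over the 10 dogs was most like that of LALBA were named by their correlation with its brighter probe, as a description with no test. They were LYZF2 (r = 0.952), MYL2 (0.921), PLCE1 (0.887), SLC1A2 (0.857) and PYGL (0.84), and without malignant dog 2 the values were 0.899, 0.808, 0.886, 0.77 and 0.806. For CSN2 they were MYL2 (r = 0.892), OXTR (0.881), LYZF2 (0.851), KDM6A (0.827) and MYH7 (0.818), with 0.735, 0.645, 0.659, 0.878 and 0.508 without malignant dog 2. LYZF2 and MYL2 were named for both genes, and MYL2, PYGL and MYH7 entered through a probe other than the brightest of the gene. Some of the levels correlated were not above background. Of 19 arrays LYZF2 was well above it on 11, MYL2 and PLCE1 on 12, PYGL on 15 and MYH7 on 8. SLC1A2, OXTR and KDM6A were well above it on 19. LYZF2 is also the neighbour of LALBA in the RefSeq gene order, while ODAM, the neighbour of CSN3, was well above background on 0 arrays. Among all 35310 probes of other genes, with a symbol or without, 15 had an r of at least 0.9 with LALBA and 6 with CSN2, the latter all closer to CSN2 than any gene named.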

How the data were processed

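The values are 1-colour intensity signals that Agilent Feature Extraction made with background subtracted. The submitters' processing notes name version 11.5.1.1, and the paper names another version. The deposited table of all 22 arrays holds raw intensity with no background removed. It equalled the median spot signal on every array with a scanner file. Levels were log2 processed signal minus the 75th percentile of the array, outlier spots left out, with spots of a probe and the arrays of a dog averaged. Probes that at least 4 arrays showed well above background were tested with limma 3.58.1 in R 4.3.3, in 1 fit of 3 groups over dogs, with Benjamini-Hochberg adjustment over all 35314 probes. Named genes were the members, the called genes of each list or otherwise its 3 brightest, and the 5 most correlated of the 1458 genes with a symbol. The members and lists were chosen with earlier results of these data known. Alternatives were normexp correction (run on median signals, since the files hold no mean signals), quantile normalisation, no filter, the brightest probe of a gene, 2-group fits, leaving out each dog, 1 array per dog, slide and dog-number blocks, the deposited table and an unpaired t-test in place of the paired one that the methods name, since the groups are different dogs. The SD of the malignant dogs with each left out, and in the table, was added after seeing the data. The steps were tested on simulated data. Correlations used permutation tests (scipy 1.17.1).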

Additional observations from a re-analysis of the deposited data

Results flagged for a closer look

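In the 5 malignant dogs the brighter LALBA probe had 1 dog far from the rest: malignant dog 2 at 8.04, with the next dog at -1.21, a gap of 0.743 of the whole range. Another probe of MYH7, a muscle myosin gene, had the same dog far from the rest, at -1.58 with the next at -4.45, a gap of 0.742 of the range, but this probe was among those looked at because its levels followed CSN2, which is highest in that dog. Of 52 probes looked at in this way 2 stood out, and chance alone makes about 1 in 20 groups stand out. The dimmer LALBA probe and CSN2, highest in the same dog, had gaps of 0.639 and 0.534 and did not stand out by this measure.

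Malignant dog 6, for which the deposited table gives signals and no scanner file was among the files used here, had levels above the highest healthy dog of that table for all 3 milk protein probes: 8.11 for the brighter LALBA probe, 7.1 for the dimmer probe and 8.73 for CSN2, against 1.5, 0.38 and -0.63.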

How the results depend on the processing

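No milk protein probe was called under any alternative (lowest adjusted p 0.713), and over all results and alternatives 23 values reversed and 26 moved, by more than the SD between dogs for a value within a slide or by over 1.5 times for a count or an SD. The other 269 kept their side of the threshold or lay within that measure, and include large shifts and within-slide changes of sign. Leaving out single dogs gave, for the brighter and dimmer LALBA probes and CSN2 in turn, malignant against healthy -2.10 to 3.82, -2.20 to 4.61 and -0.63 to 4.81, benign against healthy -3.96 to 1.96, -3.64 to 3.17 and -2.91 to 2.52, and malignant against benign -0.30 to 3.98, -0.87 to 3.41 and -0.11 to 3.82. Malignant against healthy reversed without malignant dog 2 (-1.30, -1.10, -0.30) and without healthy dog 1 (-2.10, -2.20, -0.63), benign against healthy without benign dog 3 (0.86, 1.33, 1.94), without healthy dog 2 (1.96, 3.17, 2.52) and, for the dimmer probe, without benign dog 2 (0.17), and malignant against benign without malignant dog 2 (-0.30, -0.87, -0.11) and, for the dimmer probe, without benign dog 3 (-0.13). The brighter probe and CSN2 came to 0.00 and 0.15 there. With dog numbers as a replicate block benign against healthy reversed to 1.12, 1.69 and 2.38, malignant against healthy became 4.46, 5.05 and 7.03 and malignant against benign 3.34, 3.36 and 4.65, although same-numbered dogs correlated no better (7 pairs, -0.174 to 0.106) than other pairs (24, -0.25 to 0.28). On the second array of each dog benign against healthy was 0.05 for the dimmer probe and 0.09 for CSN2, and with slide as a term 0.05 for the dimmer probe. Within slide 4 malignant against healthy moved to 8.13, 8.78 and 10.59 and within slide 5 to -6.78 for CSN2, and malignant against benign moved to -3.27 for the brighter probe within slide 2 and to -3.16 for CSN2 within slide 5. Smaller changes of sign within slides were, for malignant against healthy, -0.22 (slide 2) and -2.67 (slide 5) for the brighter and -2.39 (slide 5) for the dimmer probe, for benign against healthy on slide 2, 3.05, 3.83 and 2.28, and for malignant against benign, -3.48 for the dimmer probe (slide 2) and -1.32 for CSN2 (slide 3). Counts of called probes against healthy tissue ranged over dogs left out from 72 to 885 (malignant) and 65 to 928 (benign), and from 0 to 2 between tumours. They were 88 and 81 with the brightest probe of a gene, 89 and 85 with the replicate block, 37 for benign with only its 2 groups in the fit, 32 and 0 by the unpaired t-test after Benjamini-Hochberg or Storey adjustment, and 1417, 1717 and 803 unadjusted. The SD over malignant dogs, tried after seeing the data, ran with 1 dog left out from 1.64 to 5.79 (brighter probe), 2.40 to 6.42 (dimmer probe) and 3.18 to 6.92 (CSN2), each time lowest without malignant dog 2. The cause was not tested.

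Normexp correction shifted the median of all probes to -0.195, -0.494 and 0.326 and the deposited table to -0.121, -0.364 and 0.265, and no milk protein difference reversed under either. Without 1 healthy dog the lone one was assumed to vary like the other groups. With 2 healthy and 3 benign dogs, and a 75th percentile only 6.37 to 45.3 times the background, low levels are imprecise.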
